A study of Mus musculus with 18 samples.

Results

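Claudins are membrane proteins that form the strands of tight junctions, the seals between neighbouring epithelial cells, and 9 of them were followed here by their transcripts in mouse colon: *Cldn2*, *Cldn1*, *Cldn3*, *Cldn4*, *Cldn7*, *Cldn8*, *Cldn12*, *Cldn15* and *Cldn23*. The 9 were chosen by name, as the claudins best known in colonic epithelium, with earlier results of these data known. They were matched by Ensembl identifier among the 47729 genes of the count table. All 9 passed the filter on low counts, which kept 16937 genes. Together they held 98.6% to 99.8% of the claudin transcripts of a library (33 claudin genes, counts per M reads, CPM, divided by transcript length in kb).

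RNA came from colon of WT mice and of *Cldn2*KO mice, in which *Cldn2* is knocked out, all on a C57BL/6 background. Both genotypes were studied untreated (controls), after recovery from colitis that was induced with DSS (dextran sulfate sodium, which damages the gut lining), and as a model of colon cancer. In that model a single injection of the carcinogen AOM (azoxymethane, 10 mg/kg) was followed by 3 cycles of 2.5% DSS. Each of the 6 groups held 3 libraries, and total counts ranged from 17.6 to 27.4 M reads. The study describes age- and sex-matched littermates, and distal colon as the source of recovery RNA, but the libraries did not match in sex, and some lacked a distal marker. *Xist*, which is transcribed from the inactive X chromosome of females, was at 864.6 to 1742 CPM in 2 of 3 libraries each of WT recovery, *Cldn2*KO recovery and *Cldn2*KO AOM/DSS, and at 1.162 CPM or less in the other 12, so libraries with *Xist* were absent from both control groups and from WT AOM/DSS. The labels do not name the mouse behind a library. Libraries of a group differed by a chi-square per degree of freedom of 10.98 to 292 over genes, against 1.08 to 1.17 between the 2 lanes of a library. Almost no transcript of *Hoxb13* was found in WT control replicate 2 or in the 6 recovery libraries. *Hoxb13* is a gene of the distal gut that the 11 other libraries expressed. Calls of the members and other named genes that were lost without this control are given with that value.

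Claudins differ in what they let pass. CLDN2 and CLDN15 form channels for small cations and water between cells, and CLDN2 belongs to the crypt while CLDN15 is best known from small intestine. CLDN1, CLDN3, CLDN4 and CLDN8 are mostly described as sealing claudins, CLDN7 is abundant in colon and is also found along the lateral membrane, CLDN12 has been linked to calcium passage, and CLDN23 is found in differentiated surface cells. With *Cldn2* lost, the question put to these data was whether any other claudin took a different level, at rest or after injury.

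*Cldn2* and *Cldn15*, the pore-forming members, had their highest group means in WT recovery, so the 250 bases before their RefSeq start sites (GRCm38.p6, plus strand) are shown here. Capitals mark a TATA box, searched as TATAAA, and the core bound by CDX homeodomain factors of the gut, searched as TTTATG. A core of the HNF1 site was searched as GTTAAT, and each of the 3 motifs was looked for on both strands. The windows lie at chrX:139800558-139800807 and chr5:136967619-136967868.
Cldn2: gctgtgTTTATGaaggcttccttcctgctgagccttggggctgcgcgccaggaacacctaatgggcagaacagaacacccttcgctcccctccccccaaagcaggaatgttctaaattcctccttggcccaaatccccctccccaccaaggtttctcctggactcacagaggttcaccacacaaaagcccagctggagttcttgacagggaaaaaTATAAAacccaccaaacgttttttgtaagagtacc
Cldn15: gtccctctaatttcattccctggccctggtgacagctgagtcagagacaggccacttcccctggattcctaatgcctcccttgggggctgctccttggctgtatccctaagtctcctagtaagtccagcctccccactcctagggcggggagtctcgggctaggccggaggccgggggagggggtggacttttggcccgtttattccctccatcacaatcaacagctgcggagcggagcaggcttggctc
In *Cldn2* the CDX core began 244 bases and the TATA box 35 bases before the start, and the 3 motifs had no match in the *Cldn15* window. Among 32851 promoter windows of this length, 10.8% held the CDX core, 12.4% the TATA box and 6.4% the HNF1 core on either strand. Of the 9 members 7 had a promoter entry, and the only other match was the HNF1 core in *Cldn1*, 241 bases before its start.

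**Figure D1:**
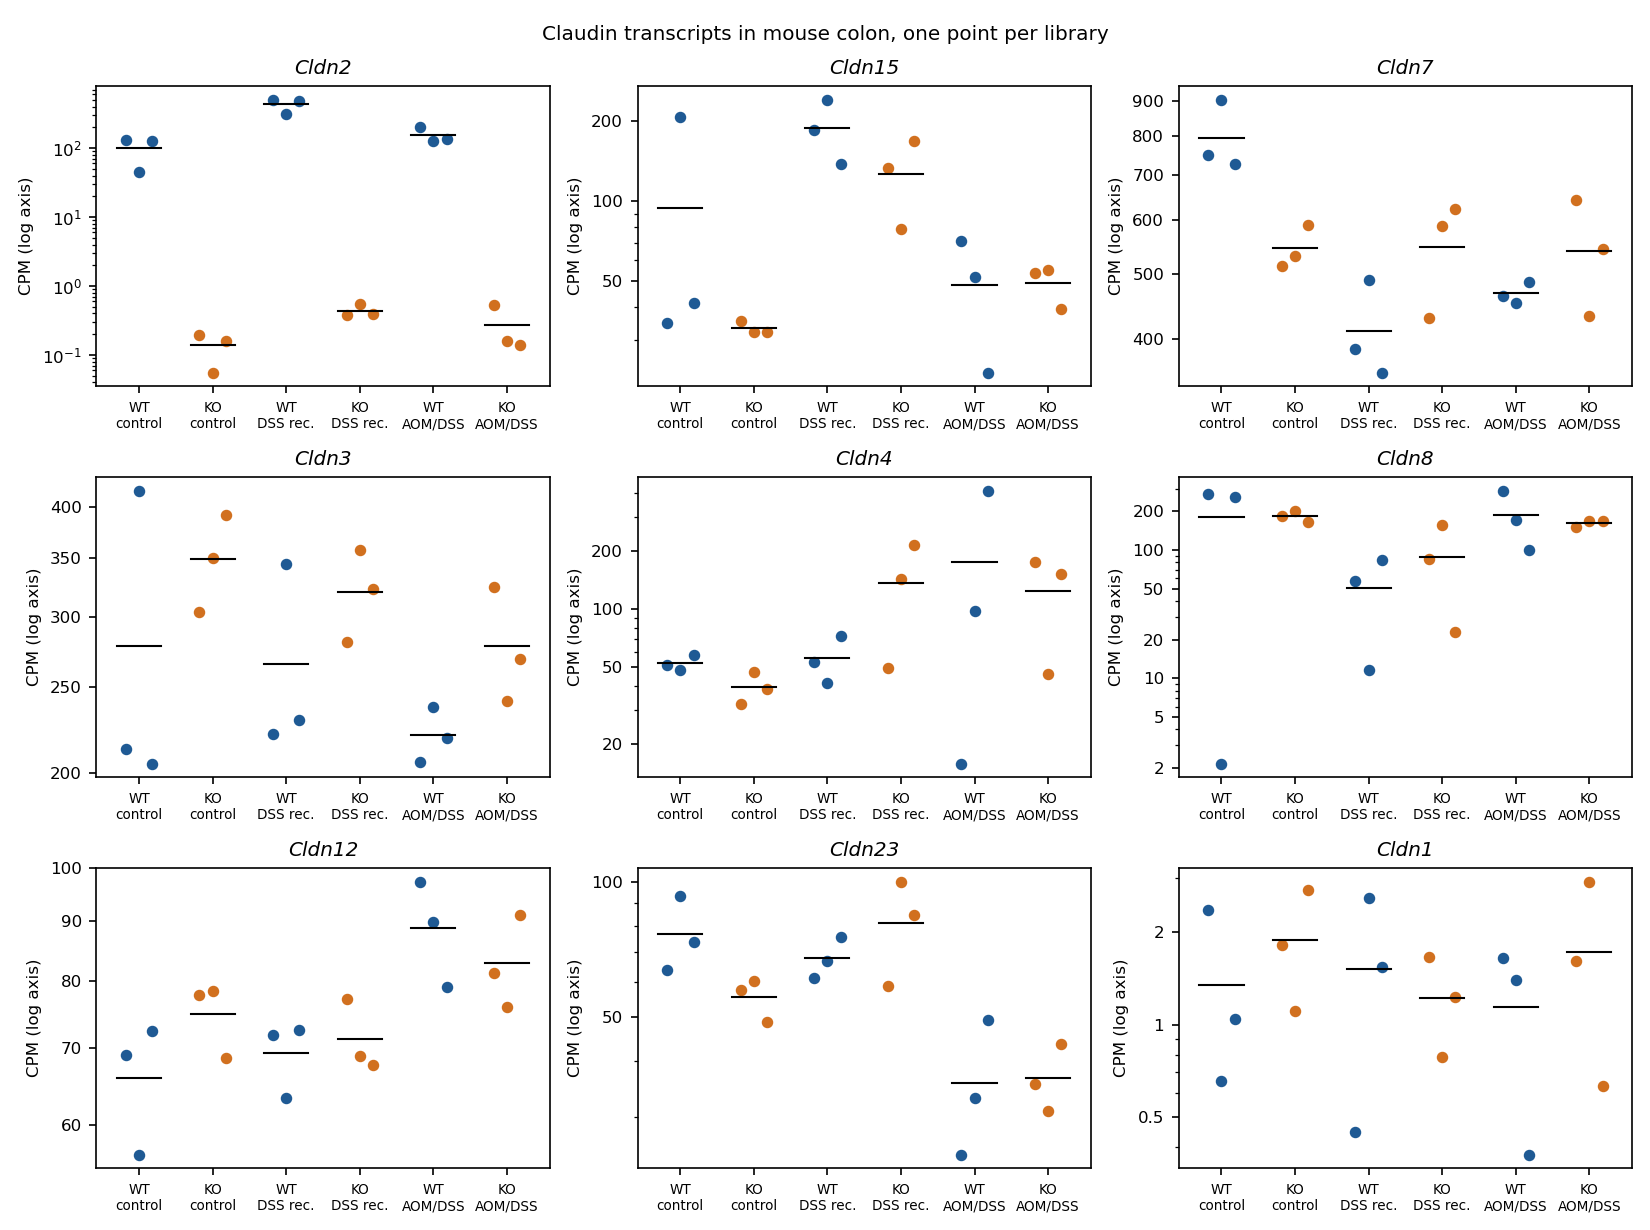
CPM of the 9 claudins on log axes, with a point for each of 3 libraries per group (blue WT, orange *Cldn2*KO) and a bar at the group mean. *Cldn2* separated the genotypes in every treatment, *Cldn7* was highest in the 3 WT controls, and WT control replicate 2 stood apart for *Cldn15* and *Cldn8*.

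*Cldn2* (ENSMUSG00000047230) lies on the plus strand of chromosome X, at 139800828 to 139811386 in GRCm38, and followed the genotype labels in all 18 libraries. WT controls held 3329, 680 and 2311 *Cldn2* reads, and *Cldn2*KO controls 4, 1 and 3. WT recovery held 12389, 4307 and 8221 reads against 7, 12 and 8 in *Cldn2*KO, and WT AOM/DSS 4244, 2879 and 2856 against 11, 5 and 4. The reads left in *Cldn2*KO colon amounted to 0.137% of the WT mean CPM in controls. After recovery the share was 0.102%, and after AOM/DSS 0.177%. Averaged over treatments the log2 fold change was -9.52 (SE 0.328, edgeR adjusted p 1.1e-10). *Cldn2* was the single gene called between genotypes in AOM/DSS, where 0.0059% of all tested genes were called.

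In WT mice *Cldn2* was higher in recovery than in either other treatment. WT controls held 131, 44.5 and 127 CPM, recovering WT mice 504, 309 and 486 CPM, and AOM/DSS mice 205, 126 and 135 CPM. The recovery libraries did not overlap the others, whereas controls and AOM/DSS overlapped. *Cldn2* rose in recovery over control by 2.10 on the log2 scale (95% confidence interval 1.31 to 2.90, edgeR adjusted p 0.002), and fell by 1.48 on the log2 scale from recovery to AOM/DSS (edgeR adjusted p 0.0107). With epithelial marker level as a covariate the latter was -2.05 and not called (edgeR adjusted p 0.155). AOM/DSS over control gave 0.63 (-0.14 to 1.39, edgeR adjusted p 0.259). As a share of claudin transcripts per kb, *Cldn2* took 3.65% ± 2.005 in WT controls, 17.7% ± 5.41 in recovery and 6.68% ± 2.18 in AOM/DSS (SD, n = 3).

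**Figure D2:**
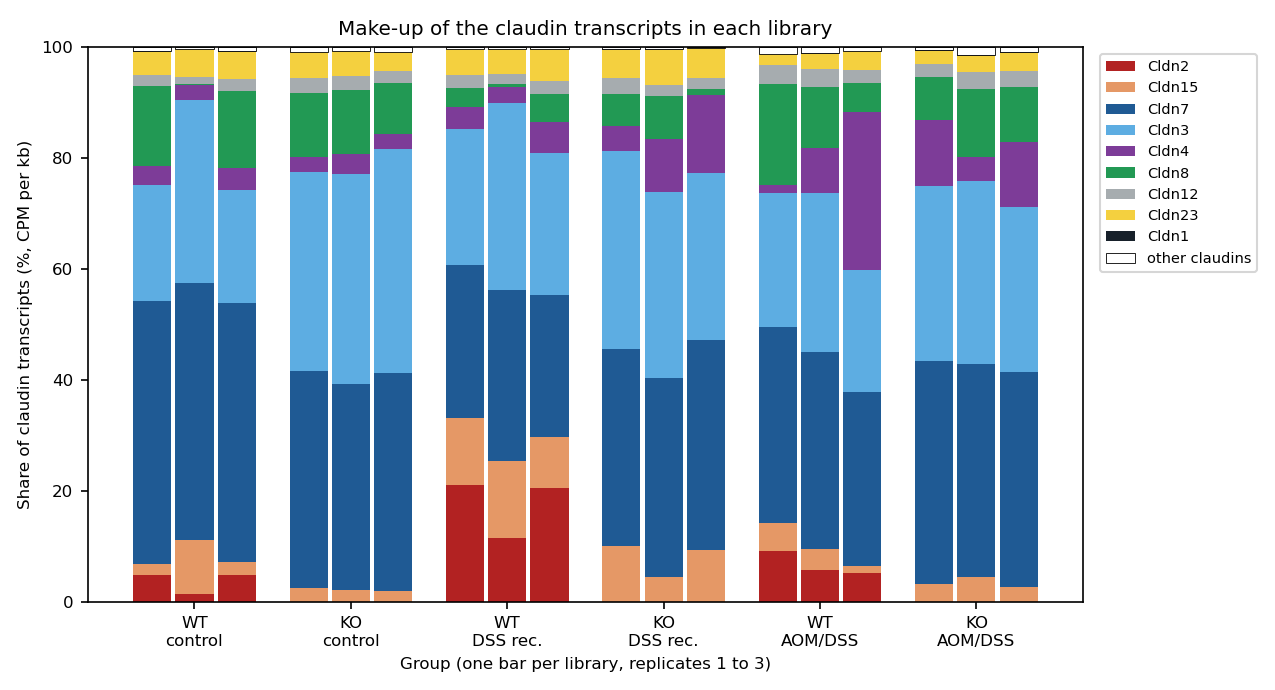
Share of claudin transcripts (CPM per kb, in %) taken by each gene, with a stacked bar for each library in the 6 groups. *Cldn7* and *Cldn3* made up most of every library, and *Cldn2* reached 11.4% to 21.1% in WT recovery against 1.34% to 9.17% in the other WT libraries.

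*Cldn15* (ENSMUSG00000001739, chromosome 5, 136966616 to 136975858, plus strand), the other cation channel, was high in every recovery library. It stood at 34.8, 207 and 41.6 CPM in WT controls against 35.6, 32.2 and 32.4 CPM in those of *Cldn2*KO. Recovery libraries held 186, 241 and 138 CPM in WT and 133, 78.5 and 169 CPM in *Cldn2*KO. AOM/DSS libraries held 71.3, 52.1 and 22.7 CPM in WT and 53.6, 55.4 and 39.4 CPM in *Cldn2*KO. All 6 recovery libraries were thus above every other library except WT control replicate 2. *Cldn15* rose in *Cldn2*KO recovery over control by a log2 fold change of 1.92 (0.70 to 3.15, edgeR adjusted p 0.0296), and it fell in WT by 1.95 on the log2 scale from recovery to AOM/DSS (edgeR adjusted p 0.0245). In WT, recovery over control gave 1.0 (-0.19 to 2.19, edgeR adjusted p 0.215), and 2.28 without WT control replicate 2 (edgeR adjusted p 0.00114). The *Cldn2*KO call was lost without any single *Cldn2*KO control, or without recovery replicate 1 or 3 (edgeR adjusted p 0.0615 to 0.0918). The WT fall to AOM/DSS was lost without WT recovery replicate 2 or WT AOM/DSS replicate 2 or 3 (edgeR adjusted p 0.0624 to 0.0974), and was -0.33 with the epithelial covariate (edgeR adjusted p 0.884). With an *Xist* covariate neither was called (edgeR adjusted p 0.0681 in *Cldn2*KO and 0.0582 in WT).

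The level of *Cldn15* went with a second difference between libraries. *Hoxb13* and *Hoxd13*, which mark the distal end of the gut, did not pass 0.502 and 0.262 CPM in WT control replicate 2 or in any recovery library, whereas the 11 other libraries had 198 and 192 CPM or more. The 7 libraries with low *Hoxb13* held 78.5 to 241 CPM of *Cldn15* and the 11 others 22.7 to 71.3 CPM, with no overlap. *Cdx2*, the gut homeodomain gene whose binding core stands in the *Cldn2* window above, split the same way. Recovery libraries held 214 to 242 CPM of *Cdx2*, the second WT control 337 CPM, and the remaining 11 libraries 13.6 to 31 CPM. Between treatments, recovery and the position along the colon that these genes mark cannot be told apart in *Cldn2*KO, where no control had low *Hoxb13*. In WT every recovery library had low and every AOM/DSS library high *Hoxb13*, so they cannot be told apart in AOM/DSS over recovery either. For WT recovery over control, only control replicate 2 separates them. These limits hold for every gene compared here with recovery, *Cldn2* included. A fit with *Hoxb13* above 10 CPM as a covariate gave *Cldn15* a recovery log2 fold change of -0.14 in WT (edgeR adjusted p 0.885) and -0.52 in *Cldn2*KO (edgeR adjusted p 0.795), and *Cldn15* 0.49 in WT for AOM/DSS over recovery. As WT control replicate 2 was the only control with low *Hoxb13*, every treatment value with this covariate rests on that library.

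*Cldn2* went the other way in WT control replicate 2. With 44.5 CPM it was the lowest WT library, against a mean of 129 CPM in the other WT controls, and the WT recovery mean was 9.73 times its level and 3.36 times that of the other WT controls. With the *Hoxb13* covariate the rise of *Cldn2* in WT recovery was 3.28 on the log2 scale (edgeR adjusted p 0.00156), a value that rests on the same control. The rise was called in all 15 alternatives, with edgeR, DESeq2 or limma adjusted p up to 0.031. Since the RNA came from whole tissue, more cells of a kind and more RNA per cell cannot be told apart.

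**Figure D3:**
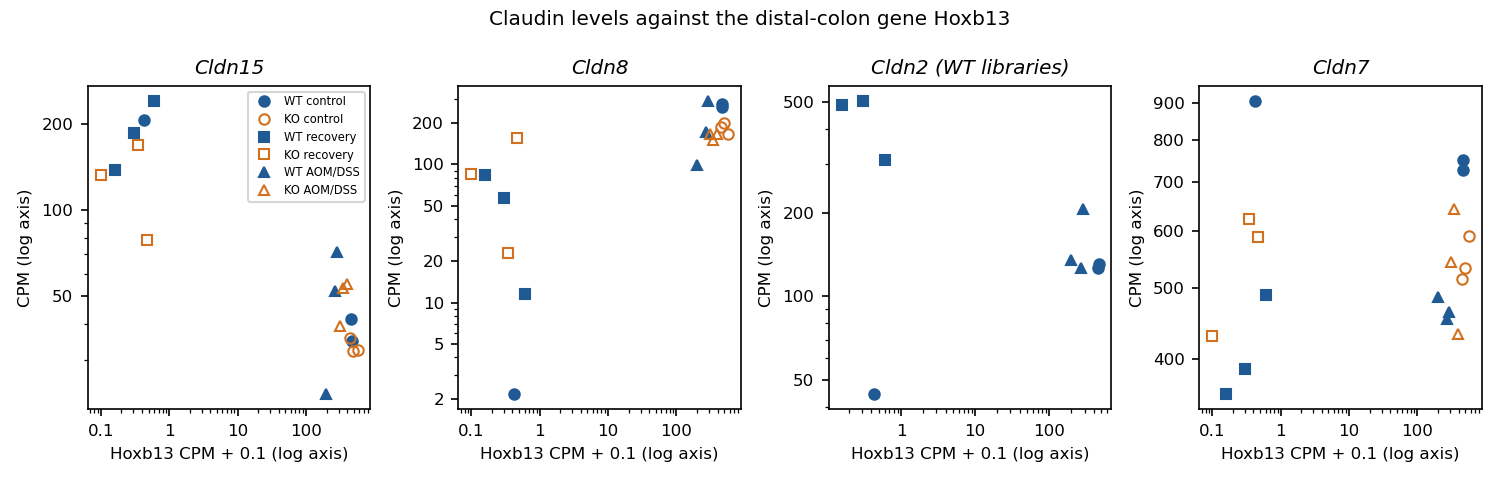
CPM of *Cldn15*, *Cldn8*, *Cldn2* (WT libraries) and *Cldn7* against *Hoxb13* CPM (0.1 added), both axes logarithmic, with a point for each library. The 6 recovery libraries and WT control replicate 2 lie at the left, where *Cldn15* is at 78.5 CPM or more and *Cldn8* at 155 CPM or less.

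*Cldn8* (ENSMUSG00000050520, chromosome 16, 88560828 to 88563183, minus strand), a sealing claudin known for its role in sodium absorption in the distal colon, varied most among libraries of a group. It stood at 275, 2.16 and 260.2 CPM in WT controls and at 185, 201 and 166 CPM in *Cldn2*KO controls. Recovery libraries held 57.1, 11.6 and 83.6 CPM in WT and 85.1, 155 and 22.9 CPM in *Cldn2*KO, and the AOM/DSS libraries held 99.4 to 289.8 CPM in WT and 150.8 to 167.6 CPM in *Cldn2*KO. All recovery libraries were below every *Cldn2*KO control and below WT control replicates 1 and 3, while WT control replicate 2 was the lowest of all 18. Recovery over control was -1.82 in WT (-4.03 to 0.39, edgeR adjusted p 0.224) and -2.42 without WT control replicate 2 (edgeR adjusted p 0.018). In *Cldn2*KO it was -1.07 (-3.23 to 1.10, edgeR adjusted p 0.513). The *Hoxb13* covariate reversed both, to 4.55 and 5.88, in a fit where WT control replicate 2, at 2.16 CPM, was the only control with low *Hoxb13*.

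*Cldn14*, the only further claudin with a call, sorted the libraries by *Hoxb13* as well. It stood at 0.0984 to 0.646 CPM in the 7 libraries with low *Hoxb13* and at 2.72 to 8.04 CPM in the 11 others. *Cldn14* fell in recovery by 2.91 on the log2 scale in WT (edgeR adjusted p 0.0201) and by 3.48 in *Cldn2*KO (edgeR adjusted p 0.00868). Without WT control replicate 2, the *Cldn14* value in WT was -3.48 (edgeR adjusted p 0.000271). Of 25 further claudin genes listed, 24 were in the table and 4 had enough counts to be tested, and *Cldn14* was chosen from them by its call.

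*Cldn7* (ENSMUSG00000018569, chromosome 11, 69964779 to 69967885, plus strand) had the highest group mean of all claudins per kb in WT controls, at 408 CPM per kb against 221 for *Cldn3*, and fell in WT after both injuries. It stood at 750, 905 and 727 CPM in WT controls, fell to 387, 489.8 and 357 CPM in recovery, and held 464, 453 and 487 CPM after AOM/DSS, with no overlap between controls and treated libraries. The *Cldn2*KO libraries held 514, 532 and 589.8 CPM in controls, 430.2, 588 and 623 CPM in recovery and 643, 433 and 544 CPM in AOM/DSS, all overlapping. *Cldn7* fell in WT recovery by 0.95 on the log2 scale (-1.34 to -0.56, edgeR adjusted p 0.00311) and in WT AOM/DSS by 0.76 (-1.15 to -0.37, edgeR adjusted p 0.0241). Smooth muscle markers were lower in the same comparisons, with a median log2 fold change of -1.83 over 10 markers in WT recovery (6 called lower) and -1.44 in WT AOM/DSS (4 called lower, and 0 without WT control replicate 2). In *Cldn2*KO recovery all 10 were called lower, with a median of -2.89. In WT AOM/DSS 6 of 10 neuron and glia markers were called lower (median -1.92), and 2 without that control. Over all genes 22.2% were called in WT recovery, 10.4% in WT AOM/DSS and 19.4% in *Cldn2*KO recovery, and the share in WT AOM/DSS was 1.99% without WT control replicate 2. The 14 markers of surface colonocytes had a median of -0.62 in WT recovery (1 called higher, 5 lower) and 1.0 in *Cldn2*KO recovery (6 higher, 3 lower). WT control replicate 2 held the most of them of all libraries, 71770 CPM in sum against 11790 and 10780 CPM in WT control replicates 1 and 3. Without it the WT median was -0.18 (5 higher, 2 lower), and the median of the recovery interaction was 0.14 in place of 1.10. In WT AOM/DSS 9 of the 14 were called lower (median -1.97), and 5 without that control. The part of these markers in the *Cldn7* values was not tested. In *Cldn2*KO the *Cldn7* log2 fold changes were 0.01 (-0.38 to 0.39) in recovery and -0.02 (-0.40 to 0.37) in AOM/DSS. The fall in WT recovery was called in all 15 alternatives (adjusted p up to 0.0356), and that in AOM/DSS was lost in 6, among them the fits without WT control replicate 2 (edgeR adjusted p 0.0819) and without WT AOM/DSS replicate 2 or 3 (edgeR adjusted p 0.0535 and 0.0761). Its size stayed between -0.82 and -0.68 on the log2 scale over the fits without 1 library.

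The difference of these *Cldn7* responses between genotypes was itself tested. The interaction was 0.95 in recovery (0.40 to 1.50, unadjusted edgeR p 0.00206, adjusted p 0.0931) and 0.75 in AOM/DSS (0.20 to 1.30, unadjusted edgeR p 0.0108, adjusted p 0.503), so neither passed the threshold over all genes. Both interactions share the control libraries, which did not overlap between genotypes. *Cldn7* was at 794 ± 97.2 CPM in WT and 545 ± 39.5 CPM in *Cldn2*KO controls (SD, n = 3; log2 fold change -0.54, edgeR adjusted p 0.186). In recovery the order was turned, 411 ± 69.7 CPM in WT and 547 ± 103 CPM in *Cldn2*KO (log2 fold change 0.41, edgeR adjusted p 0.224), and the libraries overlapped. DESeq2 and limma-voom with sample weights called the recovery interaction, as did edgeR without *Cldn2*KO recovery replicate 1. DESeq2 and limma-voom also called larger shares of all genes in that interaction than edgeR did, as given in the last section. No member was called by edgeR in either interaction, where 0.13% and 0.0118% of all genes were called, and 2 and 1 members had an unadjusted p under 0.05, as had 18.5% and 8.44% of all genes. Without WT control replicate 2 the interactions of *Cldn7* were 0.86 and 0.67 (edgeR adjusted p 0.158 and 0.682).

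**Figure D4:**
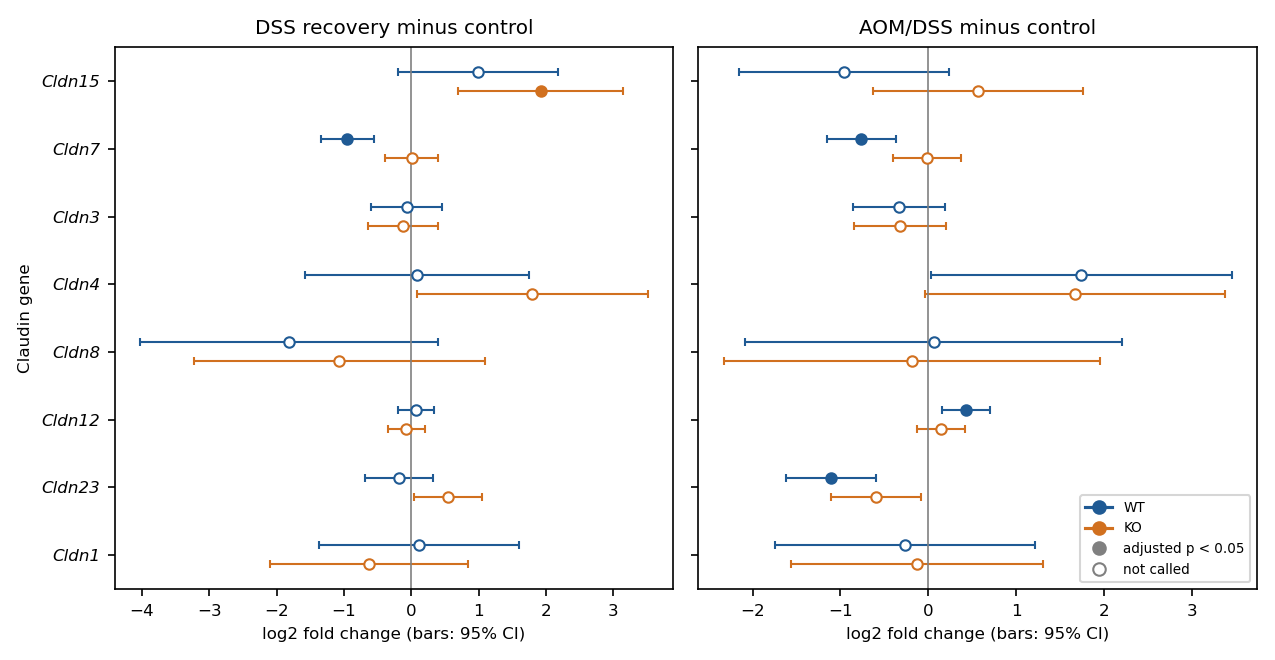
Log2 fold changes of 8 claudins after DSS recovery (left) and AOM/DSS (right) over control, with 95% confidence intervals, in WT (blue) and *Cldn2*KO (orange); filled points were called. The WT and *Cldn2*KO intervals of *Cldn7* did not overlap in recovery, -1.34 to -0.56 against -0.38 to 0.39.

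*Cldn3* (ENSMUSG00000070473, chromosome 5, 134986214 to 134987472, plus strand) is a sealing claudin found along the whole gut. In the fit of all 18 libraries, it was the only member besides *Cldn2* whose genotype difference had the same sign and much the same size in each treatment. It stood at 213, 417 and 205 CPM in WT controls and at 304, 350.3 and 392 CPM in *Cldn2*KO controls. Recovery libraries held 222, 345 and 229.6 CPM in WT and 281, 357 and 323 CPM in *Cldn2*KO, and AOM/DSS libraries 206, 237 and 219 CPM in WT and 325, 241 and 269 CPM in *Cldn2*KO. The groups overlapped in controls and in recovery, and in AOM/DSS every *Cldn2*KO library was above every WT library. *Cldn2*KO over WT gave log2 fold changes of 0.33, 0.27 and 0.34, with a mean over treatments of 0.31 (0.01 to 0.61, unadjusted edgeR p 0.0443, adjusted p 0.261), which was not called. Over fits without 1 library each, the *Cldn3* values ran from 0.15 to 0.72 in controls, 0.15 to 0.49 in recovery and 0.20 to 0.44 in AOM/DSS, so the like size depends on the libraries kept. The highest of all 18 values came from WT control replicate 2, and without it the mean was 0.44 (edgeR adjusted p 0.0477). The mean was 0.45 with the *Hoxb13* covariate (edgeR adjusted p 0.0428). Within groups that covariate varied only through WT control replicate 2, so this fit adds nothing separate to leaving that library out. Among the 7 libraries with low *Hoxb13* the genotypes overlapped, at 221.5 to 416.9 CPM of *Cldn3* in WT and 281.2 to 357.1 CPM in *Cldn2*KO. Among the 11 others, the 5 WT libraries held 205 to 237 CPM of *Cldn3* and the 6 *Cldn2*KO libraries 241 to 392 CPM. These 11 pool controls with AOM/DSS, and the share of all genes that part the genotypes there is not given here. With epithelial marker level as a covariate the mean was 0.25 (edgeR adjusted p 0.169). Epithelial markers lay between 9.16 and 9.50 log2 CPM in the controls and smooth muscle markers between 8.14 and 8.71 in WT and 9.18 and 9.58 in *Cldn2*KO controls, and the 11 immune markers summed to 864.2 to 1091 CPM in WT and 80.89 to 418 CPM in *Cldn2*KO controls. The immune markers had a median *Cldn2*KO over WT log2 fold change of -1.39 in controls, with *Cd3e* and *Jchain* called lower (*Cd3e* not without WT control replicate 2, edgeR adjusted p 0.223), -0.36 in recovery and -1.11 in AOM/DSS. The part of these markers in the *Cldn3* values was not tested further.

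*Cldn4* (ENSMUSG00000047501, chromosome 5, 134945119 to 134946934, minus strand), a sealing claudin whose gene lies beside that of *Cldn3*, spread widely within the treated groups. It stood at 51.3, 48.2 and 58.3 CPM in WT controls and at 32.3, 47.1 and 38.6 CPM in *Cldn2*KO controls. In recovery it stood at 53.4, 41.3 and 72.6 CPM in WT and at 49.6, 144 and 217 CPM in *Cldn2*KO, where 2 of 3 libraries were above all WT libraries. In AOM/DSS it ranged from 15.8 to 413 CPM over the 3 WT libraries and from 46.2 to 175 CPM over the 3 *Cldn2*KO libraries. No comparison called *Cldn4*. *Cldn2*KO over WT in recovery gave a log2 fold change of 1.30 (-0.40 to 2.99, edgeR adjusted p 0.393), and recovery over control in *Cldn2*KO gave 1.80 (0.08 to 3.51, edgeR adjusted p 0.134). AOM/DSS over control gave 1.74 in WT (0.03 to 3.45, edgeR adjusted p 0.161) and 1.67 in *Cldn2*KO (-0.04 to 3.37, edgeR adjusted p 0.338). Over fits without 1 library each, these *Cldn4* values ran from 0.11 to 2.28 in WT and from 1.35 to 2.09 in *Cldn2*KO.

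*Cldn23* (ENSMUSG00000055976, chromosome 8, 35824709 to 35826559, minus strand), a claudin of differentiated surface cells, was low in AOM/DSS. It stood at 63.7, 93.2 and 73.6 CPM in WT controls, with 61.3, 66.8 and 75.4 CPM in WT recovery and 24.7, 33.1 and 49.2 CPM after AOM/DSS. The *Cldn2*KO libraries held 57.4, 60.4 and 48.8 CPM in controls, 58.9, 100.3 and 84.4 CPM in recovery and 35.6, 31 and 43.6 CPM in AOM/DSS. All AOM/DSS libraries were below all recovery libraries of either genotype. *Cldn23* fell from recovery to AOM/DSS by 0.93 on the log2 scale in WT (edgeR adjusted p 0.0132) and by 1.14 in *Cldn2*KO (edgeR adjusted p 0.00575), and from control to AOM/DSS by 1.11 in WT (edgeR adjusted p 0.017). The falls from recovery lost their calls with the epithelial covariate (edgeR adjusted p 0.314 in WT and 0.139 in *Cldn2*KO) and the *Hoxb13* covariate (0.695 and 0.751), and in WT with an *Xist* covariate (0.08). In *Cldn2*KO, AOM/DSS over control gave -0.60 (-1.10 to -0.09, edgeR adjusted p 0.254). The 14 markers of surface colonocytes moved with it, at 8.28 to 10.1 log2 CPM in controls, 9.12 to 9.72 in recovery and 6.44 to 7.74 in AOM/DSS, and their part in the *Cldn23* values was not tested. Without WT control replicate 2 the fall from control in WT was 0.96 on the log2 scale and not called (edgeR adjusted p 0.0607).

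*Cldn12* (ENSMUSG00000046798, chromosome 5, 5489537 to 5514958, minus strand) was the steadiest member, with 56.6 to 97.4 CPM over all 18 libraries. Its group means ran from 66 ± 8.30 CPM in WT controls to 88.8 ± 9.26 CPM in WT AOM/DSS (SD, n = 3), and the 3 libraries of WT AOM/DSS were above the 3 WT controls. *Cldn12* rose in WT AOM/DSS over control by a log2 fold change of 0.43 (0.16 to 0.70, edgeR adjusted p 0.0455). The call was lost in 10 of 15 alternatives, 5 of them fits without a single library, with 0.31 without WT control replicate 2 (edgeR adjusted p 0.201), 0.36 without WT AOM/DSS replicate 1 (edgeR adjusted p 0.123) and 0.43 to 0.51 without WT AOM/DSS replicate 2 or 3 or WT control replicate 1 (edgeR adjusted p 0.0749 to 0.0839). In *Cldn2*KO the value was 0.15 (-0.13 to 0.42, edgeR adjusted p 0.618).

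*Cldn1* (ENSMUSG00000022512, chromosome 16, 26356642 to 26371841, minus strand), the barrier claudin of skin, was the lowest member in WT colon, with 0.378 to 2.92 CPM over the 18 libraries. Its group means lay between 1.14 and 1.89 CPM, and all groups overlapped. No comparison called it.

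Across the 8 members other than *Cldn2*, no comparison between genotypes made a call. In controls 2 of 8 had an unadjusted edgeR p under 0.05, *Cldn7* and *Cldn15*, in recovery 1 of 8, *Cldn7*, and in AOM/DSS 0 of 8. Over all tested genes 13.1%, 19.9% and 5.6% had such a p, and 1.17%, 0.974% and 0.0059% were called. DESeq2 called none of the 8 in any treatment, and limma-voom with sample weights called *Cldn3* and *Cldn7* in controls and *Cldn7* in recovery, where it called 15.1% and 11.2% of all genes. The median log2 fold change of the 8 was -0.19, 0.27 and 0.03 in the 3 treatments in that order, against -0.01, 0.00 and 0.00 over all genes. In controls the *Cldn15* genotype difference was -1.50 on the log2 scale (edgeR adjusted p 0.256), which was -0.22 without WT control replicate 2 (edgeR adjusted p 0.947).

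Averaged over treatments, where 1.5% of all genes were called, each member had an interval for its mean difference on the log2 scale. Differences of opposite sign cancel in this mean, as for *Cldn7*, at -0.54 (-0.93 to -0.15) in controls and 0.41 (0.02 to 0.80) in recovery. *Cldn3* gave 0.31 (0.01 to 0.61), the only interval of the 8 without 0. *Cldn12* gave 0.04 (-0.12 to 0.20), *Cldn7* 0.03 (-0.20 to 0.25) and *Cldn23* -0.06 (-0.35 to 0.24). *Cldn15*, the closest to *Cldn2* in the ions it passes, gave -0.68 (-1.37 to 0.00, edgeR adjusted p 0.277), and -0.26 without WT control replicate 2. *Cldn1* gave 0.26 (-0.59 to 1.10), *Cldn4* 0.13 (-0.83 to 1.09) and *Cldn8* 0.21 (-1.03 to 1.44). The last 3 intervals reach past a doubling and that of *Cldn15* past a fall of the same size, so these data do not exclude mean differences that large.

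**Figure D5:**
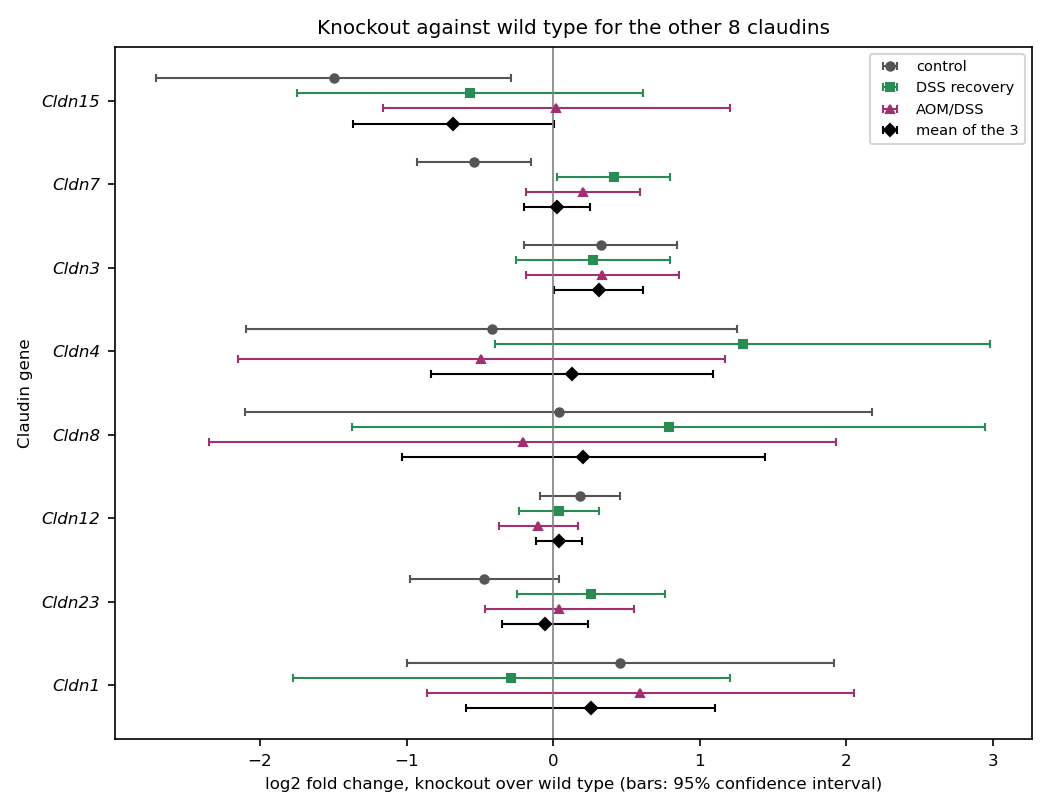
Log2 fold change of *Cldn2*KO over WT for 8 claudins, with 95% confidence intervals, in controls, recovery, AOM/DSS and their mean. The intervals of the mean for *Cldn12*, *Cldn7* and *Cldn23* lie within -0.35 and 0.25, whereas those of *Cldn4*, *Cldn8* and *Cldn1* reach 1.09, 1.44 and 1.10.

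The summed level of the claudins without *Cldn2* was 841 ± 128 CPM per kb in WT and 726 ± 48.9 in *Cldn2*KO controls, 619 ± 88.4 and 771 ± 128 in recovery, and 662 ± 80.6 and 705 ± 119 in AOM/DSS (SD, n = 3). WT and *Cldn2*KO libraries overlapped in each treatment. With *Cldn2* included the recovery sums were 749 ± 56.1 CPM per kb in WT and 772 ± 128 in *Cldn2*KO. *Cldn7* alone made up 46.4% to 47.4% of claudin transcripts in WT controls and 37.2% to 39.3% in *Cldn2*KO controls, and *Cldn3* 20.3% to 33.1% and 35.8% to 40.4%. A share can move because another member moved, so these shares are a description of the mixture.

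Between treatments, the members called were few and partly different in the genotypes. In recovery over control, 2 of 9 members were called in WT (*Cldn2* and *Cldn7*; 22.2% of all genes) and 1 in *Cldn2*KO (*Cldn15*; 19.4% of all genes). In AOM/DSS over control, 3 were called in WT (*Cldn7*, *Cldn12* and *Cldn23*; 10.4% of all genes, and 1.99% without WT control replicate 2) and 0 in *Cldn2*KO, where 1 had an unadjusted p under 0.05 and 0.195% of all genes were called. In AOM/DSS over recovery, 3 were called in WT (*Cldn2*, *Cldn15* and *Cldn23*; 24.3% of all genes) and 1 in *Cldn2*KO (*Cldn23*; 17.8% of all genes). With 9 members each call is a large share of the list, and nothing particular to the claudins was read from these counts. Beyond the *Cldn7* interaction, that of *Cldn15* was 0.93 in recovery (edgeR adjusted p 0.569) and 1.52 in AOM/DSS (edgeR adjusted p 0.615), and was not called. Over fits without 1 library each it ran from -0.37 to 1.32 in recovery and from 0.24 to 1.92 in AOM/DSS. The *Cldn23* interaction in recovery was 0.73 (unadjusted edgeR p 0.0465, adjusted p 0.261), also not called.

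Of 24 other tight junction genes, the scaffold gene *Tjp3* (ZO-3) moved like *Cldn7*. It stood at 264, 281 and 249 CPM in WT controls, 168, 184 and 189 CPM in *Cldn2*KO controls, 159.5, 151 and 145 CPM in WT recovery and 191, 242 and 226 CPM in *Cldn2*KO recovery. *Tjp3* was lower in *Cldn2*KO controls than in WT controls (log2 fold change -0.55, edgeR adjusted p 0.0362), and its recovery response differed between genotypes by 1.08 (edgeR adjusted p 0.0272). Without WT control replicate 2 these were -0.53 and 1.04 (edgeR adjusted p 0.0766 and 0.0459), so the control difference of *Tjp3* was no longer called. In recovery, *Cgn* (cingulin, a cytoplasmic plaque protein) and *Patj* (a polarity scaffold) were higher in *Cldn2*KO, with log2 fold changes of 0.68 and 0.57 (edgeR adjusted p 0.0418 each). In WT recovery 9 of the 24 were lower than in controls and 0 higher, with *Jam3*, *Tjp1* and *Tjp3* at -1.21, -1.08 and -0.80, and in *Cldn2*KO recovery 3 were lower and 2 higher, while 22.2% and 19.4% of all genes were called. The junction genes called in *Cldn2*KO recovery included *Jam3* at -1.52, *Ildr1* at 1.48, *Cgnl1* at -1.35 and *Marveld3* at -0.63. In WT recovery 11 were lower without WT control replicate 2, where 25.1% of all genes were called.

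Of 18 genes of pathways known to act on *Cldn2*, 17 were tested and none was called between genotypes in any treatment, while 1, 4 and 3 had an unadjusted p under 0.05 in controls, recovery and AOM/DSS, against 13.1%, 19.9% and 5.6% of all genes. *Egf*, a ligand of the EGF receptor, rose in recovery in WT (log2 fold change 2.02, edgeR adjusted p 0.0018) and in *Cldn2*KO (1.60, edgeR adjusted p 0.00493), from 1.35 ± 0.116 to 5.51 ± 0.537 CPM in WT. *Hnf4a* fell in WT recovery by 0.60 on the log2 scale and *Il22ra1* by 1.35 (edgeR adjusted p 0.0418 and 0.0247), and the *Hnf4a* call was lost without WT control replicate 2 (edgeR adjusted p 0.0994). In WT recovery 1 of the 17 was higher and 2 lower (22.2% of all genes were called). With WT control replicate 2 left out, 3 were higher, *Cdx2* by 3.34, *Egf* by 1.98 and *Sgk1* by 1.64 on the log2 scale, and 1 lower, *Il22ra1* (25.1% of all genes were called). In *Cldn2*KO recovery 5 were higher and 0 lower (19.4% of all genes were called), *Cdx2* by 2.99, *Ereg* by 2.19, *Egf* by 1.60 and *Tgfa* by 1.28 on the log2 scale among them. *Ereg* and *Tgfa* encode further ligands of the EGF receptor. In WT, *Ereg* stood at 4.62 ± 1.51 CPM in controls and 15.96 ± 9.42 CPM in recovery (SD, n = 3), and was not called. Of 11 genes of colonic sodium and water transport, none was called between genotypes in any treatment, and 1, 1 and 0 had an unadjusted p under 0.05, against the same shares of all genes. In WT recovery 2 were higher and 3 lower than in controls, where 22.2% of all genes were called, with *Aqp8* at -3.71, *Slc9a3* at 2.54, *Slc26a3* at -1.78 and *Scnn1b* at 1.54. *Aqp8* and *Slc26a3* were not called without WT control replicate 2 (edgeR adjusted p 0.0537 and 0.0821), while *Scnn1a*, a sodium channel subunit, was then called between genotypes over the mean of treatments (log2 fold change 0.77, edgeR adjusted p 0.0097).

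Of 38 genes within 1 Mb of *Cldn2*, 10 were tested. *Rnf128* was lower in *Cldn2*KO controls, at 178, 231 and 161 CPM against 343, 369 and 319 CPM in WT controls (log2 fold change -0.85, edgeR adjusted p 0.0479). Without WT control replicate 2 the *Rnf128* value was -0.82 and was not called (edgeR adjusted p 0.0926). In recovery and AOM/DSS its genotype differences were -0.18 and -0.28 (edgeR adjusted p 0.658 and 0.886).

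The genes most like each member were sought by the root mean square difference of centred log2 CPM over 18 libraries, among 10737 genes of at least 5 CPM. *Cldn12* lay closest to *Klhl12* (0.10), *Cldn7* to *Dolpp1* (0.16), *Cldn3* to *Deaf1* (0.17) and *Cldn23* to *Ppp1r15b* (0.27), and the own spread of these members about their mean was 0.19, 0.34, 0.33 and 0.55. *Cldn15*, with a spread of 1.05, lay closest to *Pparg* (0.32), *Gstk1* and *Tmem139*. *Cldn4*, with a spread of 1.11, lay closest to the immediate early gene *Ier3* (0.42), *Arid5a* and *Phlda1*. *Cldn8* lay no closer than 0.76 (*Gna14*) at a spread of 1.76, and *Cldn1* no closer than 0.55 (*Vkorc1*) at 0.78. Over the 9 WT libraries *Cldn2*, with a spread of 1.05, lay closest to *Fkbp11* (0.36), *Scnn1b* (0.38) and *Slc7a9* (0.39).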

How the data were processed

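RNA-seq of 18 libraries was used. The authors sequenced them on an Illumina NovaSeq instrument and deposited raw counts per gene, in 36 columns for 2 lanes a library, made with featureCounts on GRCm38. The labels name HISAT2 as aligner and the methods TopHat2, and strandedness and multi-mapping were not given in the sources used here. Lanes were summed. Symbols came from GENCODE M21 and promoters from RefSeq.

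Genes were kept with filterByExpr (16937 of 47729), scaled with TMM and fitted with edgeR 4.0.16 (quasi-likelihood, robust, a mean per group over 18 libraries). A call means a p under 0.05 after Benjamini-Hochberg adjustment over all genes tested, and intervals are 95%. Per-kb values divide CPM by the deposited exon length. Members and gene lists were chosen with earlier results of these data known. All 9 members are described. Other genes are named where called between genotypes, with immune markers named only in controls, or by size in the treatment comparisons described. By size at most 4 were named per list and fit (none near *Cldn2*), and not every gene counted is named. For likeness, the 3 closest genes were taken. The covariates epithelial level, *Xist* and *Hoxb13* (above 10 CPM), other scaling (RLE, upper quartile), no filter, DESeq2 1.42.0, limma-voom 3.58.1, fits of only the groups compared, a replicate block and fits without each library were tried. Scripts were tested on simulated counts.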

Additional observations from a re-analysis of the deposited data

How the results depend on the processing

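*Cldn2* was called between genotypes in every alternative run (log2 fold change -10.1 to -8.90), and its rise in WT recovery (1.73 to 3.28) and the fall of *Cldn7* there (-1.14 to -0.84) in all 15. The number of members called moved as follows. Limma-voom with sample weights called 3, 2 and 2 between genotypes in controls, recovery and their mean with AOM/DSS, 4 in WT and 3 in *Cldn2*KO recovery, 2 in *Cldn2*KO for AOM/DSS over control and 2 over recovery, and 1 in each interaction, while it called 15.1%, 11.2%, 11.9%, 48%, 34%, 18.3%, 28.6%, 10.4% and 1.77% of all genes in these 9 comparisons. DESeq2 called 1 in the recovery interaction (5.5% of all genes). The *Hoxb13* covariate gave 2 between genotypes over the mean, 0 in *Cldn2*KO recovery, 0 for AOM/DSS over control in WT, and 1 in WT and 0 in *Cldn2*KO for AOM/DSS over recovery. The epithelial covariate gave 0 for AOM/DSS over control in WT and 0 over recovery in both genotypes, and in *Cldn2*KO recovery it called *Cldn3* in place of *Cldn15*. The *Xist* covariate gave 0 in *Cldn2*KO recovery and 1 for AOM/DSS over recovery in WT, and no filter gave 0 in *Cldn2*KO recovery. Fits of only the groups compared gave 2 in *Cldn2*KO recovery, 0 for AOM/DSS over control in WT and 2 over recovery in *Cldn2*KO. Leaving out each library in turn gave 1 to 2 between genotypes over the mean, 2 to 4 and 0 to 1 in WT and *Cldn2*KO recovery, 0 to 3 for AOM/DSS over control in WT, 2 to 4 over recovery in WT, and 0 to 1 in the recovery interaction. Without WT control replicate 2, 25.1% of all genes were called in WT recovery (22.2% with it) and 1.99% for AOM/DSS over control in WT (10.4% with it). Over the mean 2.09% were called (1.5% with it), and in the recovery interaction 0.115% (0.13% with it). Shares of the other fits without 1 library are not given here, and nothing particular to the claudins was read from these counts. The covariate fits and those of only the groups compared called 0.0413% to 24.4% of all genes in the comparisons they changed. The cause of these changes was not tested.

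Directions that turned were those of uncalled values near 0 and of *Cldn8* and *Cldn15*. With the *Hoxb13* covariate, *Cldn8* in recovery became 4.55 in WT and 5.88 in *Cldn2*KO, and *Cldn15* -0.14 and -0.52 in recovery, 0.35 in WT for AOM/DSS over control, 0.49 and 1.08 over recovery, and -0.38 in the recovery interaction. With the epithelial covariate *Cldn8* became 0.29 in *Cldn2*KO recovery, and *Cldn15* 0.54 in WT for AOM/DSS over control, 0.29 in *Cldn2*KO over recovery and -0.064 in the interaction. Limma-voom gave *Cldn15* 0.33 in WT for AOM/DSS over control and -0.34 in the interaction, and *Cldn23* 0.081 between genotypes. *Cldn7* in *Cldn2*KO recovery became -0.094 with upper-quartile scaling and -0.29, -0.04 and -0.30 with the *Hoxb13*, *Xist* and epithelial covariates, its genotype mean -0.022 with the last, and its AOM/DSS value in *Cldn2*KO 0.023, 0.12 and 0.04 with no filter, the epithelial covariate and limma-voom. Over fits without 1 library each, the genotype means ran from -0.052 to 0.68 for *Cldn4*, -0.044 to 0.075 for *Cldn7*, -0.026 to 0.38 for *Cldn8*, -0.005 to 0.065 for *Cldn12* and -0.12 to 0.053 for *Cldn23*. In *Cldn2*KO *Cldn7* ran from -0.099 to 0.15 in recovery and from -0.15 to 0.15 in AOM/DSS, and *Cldn15* from -1.35 to 0.33 in WT for AOM/DSS over control and from -0.37 to 1.32 in the recovery interaction.

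With the replicate block 1 member, *Cldn2*, was called between genotypes in controls, as without it. Same-numbered controls had correlated deviations of 0.157, 0.002 and 0.079, so the numbers were not taken to pair mice. By CPM without division by length, *Cldn2* took 6.24%, 28.1% and 11.2% of WT claudin reads in controls, recovery and AOM/DSS. Counts of at most 12 reads in *Cldn2*KO limit the *Cldn2* fold changes, and 3 libraries a group limit the intervals of *Cldn1*, *Cldn4* and *Cldn8*.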
